A study of Homo sapiens with 2 samples.

Results

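To see where ETV4 sat at the genes that guard the genome, the ChIP-seq peaks were collected around 9 DNA damage checkpoint genes: ATM, ATR, CHEK1, CHEK2, RAD17, CLSPN, TP53BP1, MDM2 and WEE1. These 9 were a given list out of 19974 protein-coding RefSeq genes on chromosomes 1 to 22 and X. Each peak inside a gene or within 10 kb of its outer ends was assigned to it. In this way 24 of the 54389 peaks in the list were obtained. The data came from 1 anti-Flag immunoprecipitate of A549-shETV4 cells, a human lung adenocarcinoma line carrying an shRNA against ETV4, after transfection with Flag-ETV4. The control was 1 input library, whose label gives A549 and no antibody, and it enters only through the enrichment values of the peak caller. The tagged protein came from a plasmid, so the peaks describe exogenous ETV4 and not the level of the endogenous protein, and an immunoprecipitate from cells without Flag-ETV4 was not analysed here. The Flag antibody was from CST in the methods and from Sigma in the sample labels. With 1 library there were no replicates, so no SD and no test between conditions can be given, and a peak list gives no expression by which the cell identity could be checked.

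The checkpoint halts the cell cycle when DNA is broken or replication stalls. ATM answers mainly to double-strand breaks and ATR to single-stranded DNA at stalled forks, and they switch on the effector kinases CHK2 (from CHEK2) and CHK1 (from CHEK1). RAD17 loads the 9-1-1 clamp and claspin (from CLSPN) is the adaptor through which ATR activates CHK1, whereas 53BP1 (from TP53BP1) gathers at breaks. WEE1 holds CDK1 inactive, and MDM2 is the ubiquitin ligase that keeps p53 low. ETV4 is an ETS factor of the PEA3 group, and ETS factors recognise DNA with a GGAA core.

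All 9 genes had an ETV4 peak within 1 kb of the gene start. The start was taken from the RefSeq promoter table for 8 genes, and for WEE1 either end of the gene was allowed. This was common in the genome too, since 64.5% of the protein-coding genes with a listed start had such a peak, and 62.3% of all protein-coding genes had one within 1 kb of either end. A peak within 10 kb of the gene span was found for 81.9% of protein-coding genes and for 9 of the 9 checkpoint genes. Fold enrichment over input at the 9 start peaks ranged from 8.41 at RAD17 to 51.4 at CLSPN, with a median of 19.7. The median over the 12501 protein-coding genes with a start peak was 17.3, with quartiles of 9.11 and 30.4, so the checkpoint genes were spread over the range of other genes. Of the 9 start peaks, 5 were above that median and 1 was above the upper quartile. A fold enrichment of 20 or more was reached by 4 of the 9, against 43.9% of the genes with a start peak. A nearest start peak of fold 10 or more was present in 7 of the 8 checkpoint genes with a listed start, and in 46.5% of all genes with a listed start. The latter share counts genes without any start peak as below 10, whereas all 8 checkpoint genes had one.

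To show the DNA at these starts, RefSeq promoter windows on GRCh38.p14 are given for 6 of the start peaks, each from 250 bases before to 50 bases after a listed gene start and read 5′ to 3′ on the strand of the gene. Capitals mark CGGAAG, an ETS core with flanking bases, or its reverse complement CTTCCG. ATR, NPAT, MDM2 and TP53BP1 were chosen as examples in which the summit fell in the window and the motif was present. CHEK1 was taken as an example of a summit in the window without the motif. Other windows of these kinds are not shown, such as that of AK6 and TAF9 at the RAD17 start and that of HSCB at the CHEK2 start. CLSPN was chosen because it had the strongest start peak, although its summit lay outside the window. The windows are chr3:142578684-142578983 (minus strand) for ATR, chr11:108222589-108222888 (minus) for NPAT, chr12:68807922-68808221 (plus) for MDM2, chr15:43510591-43510890 (minus) for TP53BP1, chr11:125626106-125626405 (plus) for CHEK1 and chr1:35769929-35770228 (minus) for CLSPN.
ATR: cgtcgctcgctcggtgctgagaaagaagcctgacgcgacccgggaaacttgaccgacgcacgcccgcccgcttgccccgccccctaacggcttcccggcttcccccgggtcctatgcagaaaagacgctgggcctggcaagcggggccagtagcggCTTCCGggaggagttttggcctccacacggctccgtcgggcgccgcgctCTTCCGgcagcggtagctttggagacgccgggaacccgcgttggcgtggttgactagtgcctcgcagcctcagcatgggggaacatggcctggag
NPAT, at the ATM start: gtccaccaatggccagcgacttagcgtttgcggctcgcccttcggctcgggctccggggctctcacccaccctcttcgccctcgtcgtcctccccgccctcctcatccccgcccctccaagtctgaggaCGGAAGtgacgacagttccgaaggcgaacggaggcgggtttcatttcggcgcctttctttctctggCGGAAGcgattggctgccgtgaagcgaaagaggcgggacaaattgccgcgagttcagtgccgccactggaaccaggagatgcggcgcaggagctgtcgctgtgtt
MDM2: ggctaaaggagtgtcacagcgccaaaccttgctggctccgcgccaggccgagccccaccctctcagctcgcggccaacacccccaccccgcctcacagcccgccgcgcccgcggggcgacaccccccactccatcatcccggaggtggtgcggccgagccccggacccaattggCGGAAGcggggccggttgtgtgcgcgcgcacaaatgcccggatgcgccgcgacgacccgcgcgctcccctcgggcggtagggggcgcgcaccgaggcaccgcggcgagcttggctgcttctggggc
TP53BP1: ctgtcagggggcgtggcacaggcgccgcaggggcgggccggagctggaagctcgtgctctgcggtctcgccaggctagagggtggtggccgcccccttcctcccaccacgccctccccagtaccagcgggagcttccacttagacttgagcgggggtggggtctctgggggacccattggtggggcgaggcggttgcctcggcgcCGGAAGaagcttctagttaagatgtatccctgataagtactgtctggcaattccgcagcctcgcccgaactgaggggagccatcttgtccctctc
CHEK1: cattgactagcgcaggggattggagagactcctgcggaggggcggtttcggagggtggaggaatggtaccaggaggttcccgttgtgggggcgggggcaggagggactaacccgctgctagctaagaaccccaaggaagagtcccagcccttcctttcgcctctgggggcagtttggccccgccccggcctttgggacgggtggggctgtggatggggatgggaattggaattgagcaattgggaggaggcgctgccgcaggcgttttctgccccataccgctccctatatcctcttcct
CLSPN: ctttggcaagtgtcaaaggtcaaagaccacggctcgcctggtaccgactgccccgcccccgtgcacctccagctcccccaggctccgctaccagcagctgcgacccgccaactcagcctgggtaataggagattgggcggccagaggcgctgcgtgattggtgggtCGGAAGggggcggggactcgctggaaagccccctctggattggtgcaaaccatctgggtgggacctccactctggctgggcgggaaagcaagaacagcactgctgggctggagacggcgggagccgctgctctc

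The ATM start peak was summited in the window of NPAT, a neighbour transcribed in the opposite direction whose product activates histone genes. There the summit, at base 208 of the window, was 9.5 bp from the middle of the nearer of 2 CGGAAG matches. At ATR the summit was at base 219, and 10.5 bp from the nearer of 2 matches. At MDM2 the summit was at base 184 and 6.5 bp from the single match. At TP53BP1 the distance was 47.5 bp, with the summit at base 161. For RAD17, the summit was 31.5 bp from a match in the window shared by AK6 and TAF9. In all, 7 of the 9 start peaks had their summit in a listed window of any gene, and 4 in a window of the checkpoint gene itself. WEE1 had no listed window, and the share over all start peaks was not computed. For 5 of these 7 peaks such a window held CGGAAG. The exceptions were CHEK1, whose summit was 17.5 bp from the nearest GGAA, and CHEK2, whose summit lay in a window of HSCB. The CLSPN window held CGGAAG once, 414.5 bp from the summit.

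Across all 34961 windows of the table, searched on both strands, GGAA was found in 95.5%, CGGAAG in 19.4% and CCGGAAGT in 4.14%. These motifs are nested, since CGGAAG contains GGAA and CCGGAAGT contains both. Counted by gene, over any window of its own, GGAA was held by 8 of 8 checkpoint genes, CGGAAG by 5 and CCGGAAGT by 0. The same count over the 10200 protein-coding genes with a listed start and a start peak gave 96.6%, 39.0% and 9.95%. Of the 4141 peaks with a summit in any listed window, 47.6% had CGGAAG in the window. Where it was present, the median distance to the summit was 32.5 bp, and 64.6% of the summits lay within 50 bp of it. The 5 checkpoint summits with a match were thus all inside that 50 bp. These matches are a description of letters and not of bound sites.

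Of the apical kinases, ATM on chromosome 11 (108223067 to 108369102) had only 1 peak. It ran from 108221880 to 108223506, a width of 1627 bp, and its fold enrichment of 24.1 stood at the 65.3th percentile of start peaks, with a −log10 q of 81.2. Its summit at 108222681 was 386 bp upstream of the ATM start but only 43 bp upstream of the NPAT start, and the interval covered the starts of both genes. The summit pileup, the number of fragments stacked there, was 72, with a counting interval (exact Poisson, 95%) of 56.3 to 90.7, and 2.03 fragments were expected from the input, a value called the control level here. Along the 146 kb of ATM no other peak was listed, and the next one outside the 10 kb limit was 97.95 kb away, with a fold of 5.94.

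ATR on chromosome 3 (142449235 to 142578733) had 6 peaks, the most of the 9 genes. The start peak, from 142578266 to 142579044, showed a 15.5-fold enrichment with a −log10 q of 62.8, and its summit at 142578765 was 32 bp upstream of the gene. Its pileup was 72 fragments (56.3 to 90.7), with a control level of 3.71. The strongest ATR peak was not at the start. It ran from 142542980 to 142543883 inside the gene, with a summit 35.3 kb downstream of the start and 10.4 kb from the pseudogene SUCLG2P1, whose end was nearest. Its fold of 80.9 stood at the 98.2th percentile of the list and 5.22 times that of the start peak, with a −log10 q of 320. The pileup there was 186 fragments (160 to 215), with a control level of 1.31. Its interval did not overlap that of the start peak. Whether the position is an exon or an intron was not determined, because the gene table gives only outer ends.

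The other 4 ATR peaks lay in the 3′ part of the gene or beyond it. A peak from 142447153 to 142448378 with a fold of 42.0 had its summit 1683 bp past the 3′ end of ATR and 485 bp inside XRN1, which encodes a 5′-3′ exoribonuclease, and it covered the XRN1 start. The remaining 3 peaks, with summits 94.5, 92.3 and 117 kb downstream of the start, had folds of 5.996, 8.62 and 14.9. ATM and ATR are of similar length, yet 4 summits lay inside ATR more than 1 kb from its start and 0 inside ATM. Among the 1955 protein-coding genes of 100 to 200 kb, 31.6% had 0 such summits, 21.7% had 4 or more, and the median was 1.

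**Figure D1:**
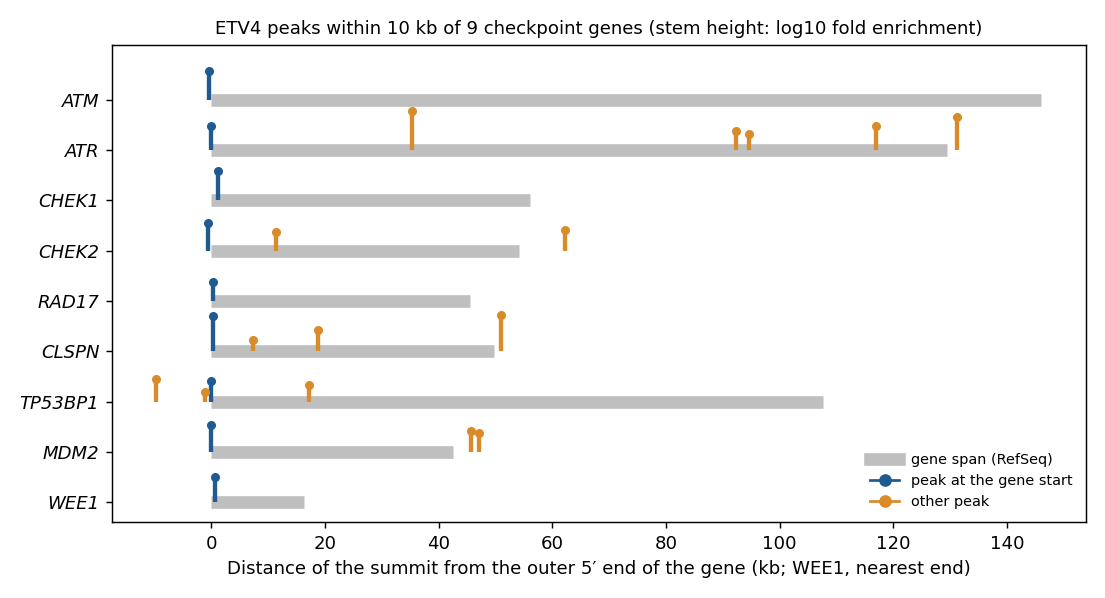
Positions of the 24 ETV4 peaks along the 9 genes, as the distance of the summit from the outer 5′ end in kb (for WEE1, the nearest end), with stems whose height is the log10 of the fold enrichment from 0. Every gene has a blue start peak near 0; ATM has no other peak over 146 kb, whereas ATR has 5 more, the tallest, with a fold of 80.9, lying 35.3 kb inside the gene.

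Of the effector kinases, CHEK1 on chromosome 11 (125625136 to 125681124) had a single peak, from 125625514 to 125626625. Its fold enrichment was 28.1, the second highest of the start peaks and at the 71.8th percentile of such peaks, and the −log10 q was 105. With its summit at 125626275, it was centred 46 bp downstream of a listed CHEK1 start and 381 bp from an end of LOC118567325, a long non-coding RNA gene. The pileup was 89 fragments (71.5 to 110), with a control level of 2.199. CHEK2 on chromosome 22 (28687742 to 28741834) had 3 peaks. Its start peak, from 28741707 to 28742779, had a fold of 21.1 and a −log10 q of 62.3. The summit at 28742465 was 645 bp upstream of the listed CHEK2 start and 433 bp inside HSCB, the gene of an iron-sulfur cluster co-chaperone transcribed the other way. The pileup was 57 fragments (43.2 to 73.9), with a control level of 1.74, and this interval overlapped that of CHEK1. A second CHEK2 peak 11.4 kb inside the gene had a fold of 8.32, and a peak 8104 bp past the 3′ end, 202 bp from an end of TTC28, had a fold of 10.5.

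RAD17 and CLSPN, both on the ATR branch, had the weakest and the strongest start peak. RAD17 on chromosome 5 (69369293 to 69414801) had 1 peak, from 69369250 to 69369935, with a fold of 8.41, a −log10 q of 16.3 and a width of 686 bp, the narrowest of the start peaks. Its summit at 69369524 was 231 bp inside the outer end of RAD17 but 294 bp upstream of the nearest listed RAD17 start. The summit was 4 bp from the listed start shared by AK6 and TAF9, the latter a subunit of the general transcription factor TFIID. The pileup was 24 fragments (15.4 to 35.7), with a control level of 1.97.

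CLSPN on chromosome 1 (35720213 to 35769978) had 4 peaks. The start peak, from 35769135 to 35770338, had a fold of 51.4, at the 93.0th percentile of start peaks, and a −log10 q of 265. Its summit at 35769645 was 333 bp inside the gene and 450 bp from CLSPN-DT, a divergent non-coding gene whose end the peak also contained. The pileup of 187 fragments (161 to 216), with a control level of 2.65 was the only one of the 9 whose interval overlapped no other start peak. At the opposite end, a peak from 35717728 to 35719397 was stronger by fold, 57.1, with a pileup of 191 fragments (165 to 220), an interval that overlapped that of the start peak. Its summit was 1157 bp past the 3′ end of CLSPN and 172 bp from an end of C1orf216, so this peak was nearer to the neighbour. Between them, peaks 7.35 and 18.7 kb inside CLSPN had folds of 3.35 and 10.8. The former was one of the weakest in the list, at the 1.90th percentile, with a pileup of 8 fragments (3.45 to 15.8).

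**Figure D2:**
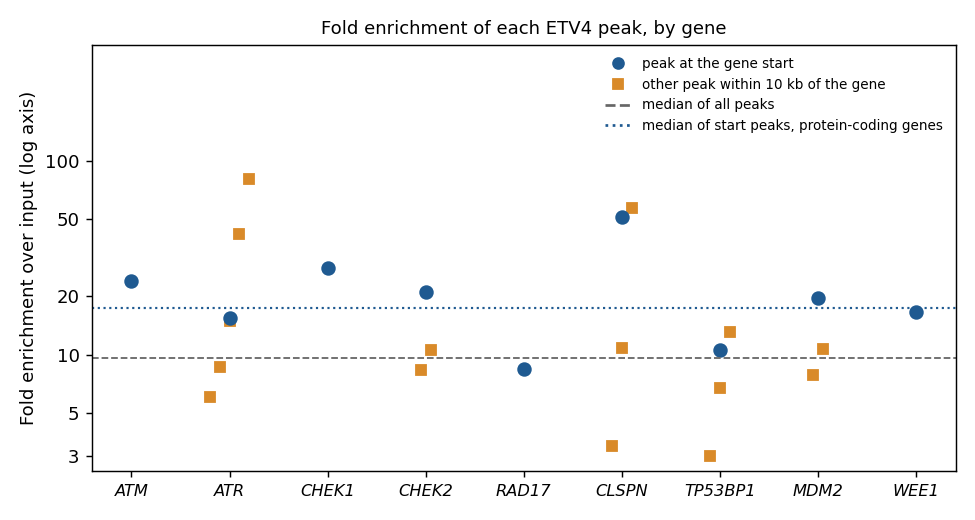
Fold enrichment over input of each of the 24 peaks on a log axis, by gene, with start peaks as blue circles and other peaks as orange squares; the lines mark the medians of all peaks, 9.63, and of the start peaks of protein-coding genes, 17.3. In CLSPN, ATR and TP53BP1 a peak away from the start exceeds the start peak, while in CHEK2 and MDM2 the start peak is the highest.

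TP53BP1 on chromosome 15 (43403061 to 43510640) had 4 peaks, none of them strong. The start peak, from 43510256 to 43511061, had a fold of 10.5 and a −log10 q of 21.5, and its summit at 43510730 lay in the gap between the start of TP53BP1, 90 bp away, and that of MAP1A, the gene of a microtubule-associated protein. The pileup was 27 fragments (17.8 to 39.3), with a control level of 1.67. A peak 17.2 kb inside TP53BP1 had a fold of 6.70. A second peak on the MAP1A side, with its summit 784 bp from the MAP1A end, was among the weakest of the list, with a fold of 2.98, a −log10 q of 1.48 and a pileup of 7 fragments (2.81 to 14.4). The fourth peak, with a summit 9727 bp upstream of TP53BP1 and inside MAP1A, had a fold of 13.1, above that of the start peak, although the pileup of 30 fragments (20.2 to 42.8) overlapped it. It was also the farthest of the 24 peaks from its gene, at 9.39 kb from the interval, and the nearest peak outside the 10 kb limit was at the same gene, at 12.5 kb with a fold of 13.6.

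MDM2 on chromosome 12 (68808172 to 68850686) has a pair of upstream starts and a pair of internal starts in the table. The start peak, from 68807660 to 68808928, had a fold of 19.7 and a −log10 q of 61.3, with a pileup of 59 fragments (44.9 to 76.1), with a control level of 2.05. Its summit at 68808105 was 67 bp upstream of the first start, and the interval ended 89 bp before the first internal start, from which the summit was 912 bp away. As background, the internal promoter of MDM2 is the one known to respond to p53. Past the 3′ end, peaks with summits 3162 and 4587 bp beyond MDM2 had folds of 10.7 and 7.81, and both lay inside CPM, the carboxypeptidase M gene. WEE1 on chromosome 11 (9573670 to 9589985), the shortest of the 9 genes at 16.3 kb, had 1 peak, from 9573081 to 9574953. It was the widest of the start peaks at 1873 bp, with a fold of 16.6, a −log10 q of 38.5 and a summit at 9574311, 641 bp inside the gene. The pileup was 37 fragments (26.1 to 51.0), with a control level of 1.28, the lowest value that the list holds.

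Ordered by pileup, the start peaks ran from CLSPN through CHEK1, ATM and ATR, MDM2, CHEK2, WEE1 and TP53BP1 to RAD17. The intervals of CLSPN and CHEK1 did not overlap, and those of every other pair of neighbours in this order overlapped. Overlap of intervals is not a test of a difference, and the pileups were not tested against each other. Farther apart in the order, the intervals of TP53BP1 and RAD17 were each separate from those of 6 other genes. The control level at the 9 summits stayed between 1.28 and 3.71, and the median of the whole list was 1.67. By contrast, a pair of intervals inside ETV4 itself, the transfected gene, had control levels of 313 and 412, so no checkpoint gene showed such a rise of the input.

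**Figure D3:**
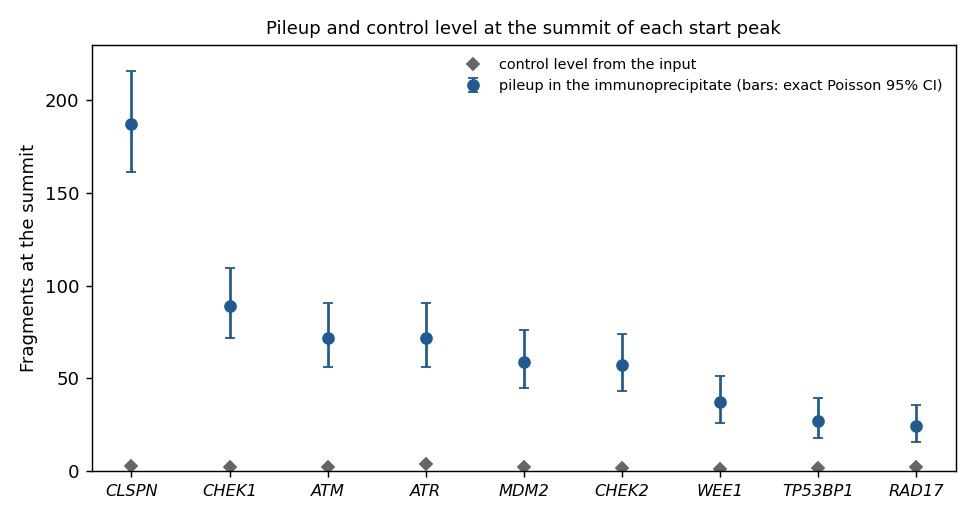
Fragments piled up at the summit of each start peak, with exact Poisson 95% confidence intervals as bars, and the control level derived from the input as grey diamonds. CLSPN, at 187 fragments, stands clear of the other genes, which run from 89 at CHEK1 down to 24 at RAD17, while the control level is at most 3.71.

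In 4 of the 9 genes, ATM, CHEK2, TP53BP1 and RAD17, the start peak also contained an end of another protein-coding gene. The share over all protein-coding genes with a start peak was 19.4%. The median fold of the 4 shared peaks was 15.8, and that of the 5 unshared ones 19.7, against 20.4 and 16.6 over all genes. The widths of the start peaks had a median of 1112 bp, against 1071 bp over all protein-coding genes with a start peak. The 15 peaks away from the start of the checkpoint gene had a lower median width, 469 bp. Their median fold was also lower, 10.5, close to the median over all peaks of 9.63. They nevertheless included the 2 highest folds of the 24 peaks, 80.9 inside ATR and 57.1 past the 3′ end of CLSPN. Of the 15, 8 were inside the checkpoint gene, with a median fold of 8.47, 4 were within 1 kb of an end of another gene and 3 were neither. Density differed between genes, from 0.602 peaks per 100 kb of the extended span at ATM to 5.73 at CLSPN. The median number of peaks within 10 kb of the span was 3 for the 9 genes and 2 over all protein-coding genes, which were not matched for gene length.

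The rest of the pathway was examined with a list of 33 further genes, which covers sensors, mediators, the p53 branch and the CDC25 and CDK targets. This list was drawn up with earlier results of these data known, so its counts are a description only. A start peak was found for 31 of 33, or for 24 of the 25 genes with a listed start, where 64.5% of all genes had one. Their median fold was 22.3, where that of all genes with a start peak was 17.3, and 17 of the 31 reached 20 or more, as did 43.9% of all such genes. The highest folds were at RNF168, a ubiquitin ligase that acts at breaks, with 112, at NBN, a subunit of the MRE11-RAD50-NBN complex, with 54.0, and at CDC25B, a phosphatase that activates CDKs, with 53.3. RNF168 had a pileup of 415 fragments (376 to 457). The lowest folds were at CDK2, with 4.18, at CCNB1, which encodes cyclin B1, with 4.38, and at the nuclease gene MRE11, with 4.49, and their pileups were between 12 and 14 fragments. RPA1 and RPA3, which encode subunits of the single-strand binding protein RPA, had no peak within 1 kb of a start or end used. No peak of any position within 10 kb was listed for RPA1, whereas RPA3 had 3. Neither the 9 genes nor these 33 are replicates of a condition, and the counts describe 1 library.

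**Figure D4:**
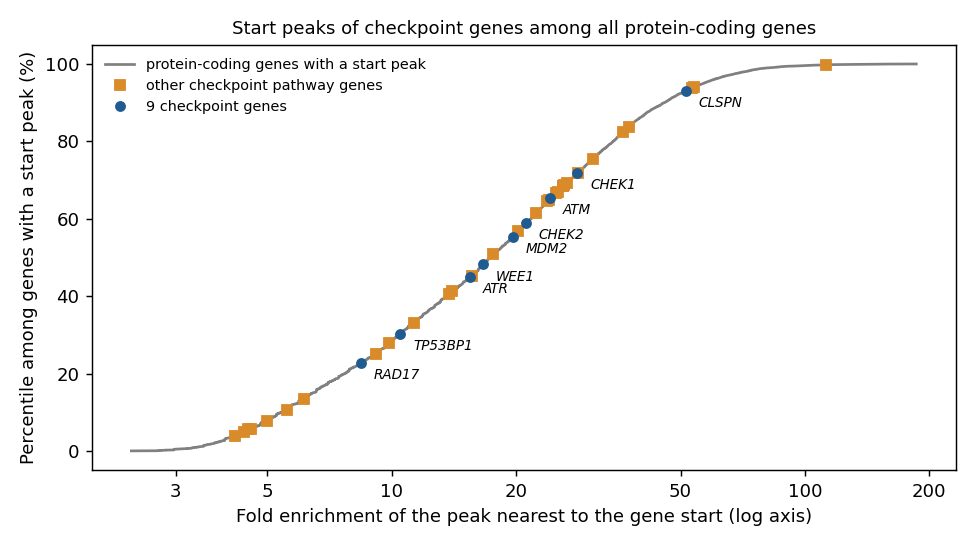
Percentile of the start peak's fold enrichment among the 12501 protein-coding genes with a start peak, against the fold on a log axis, for the 9 checkpoint genes (blue circles, named) and the other pathway genes (orange squares). The 9 genes run from the 22.7th percentile at RAD17 to the 93.0th at CLSPN, and RNF168 lies above them all at a fold of 112.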

How the data were processed

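The authors sequenced 1 anti-Flag immunoprecipitate and 1 input library and deposited a narrowPeak list of the former. The submitters' processing notes name Bowtie2 2.4.1, SAMtools, MACS2 2.2.7.1, deepTools 3.5.0 and hg38. The study states a minimum fold for this list; other calling parameters and the handling of duplicates are not given in the sources used here. The deposited columns hold the fold enrichment as a ratio, the −log10 p and −log10 q, the summit and a display score, which was not used. Peaks were called on the single library.

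Positions are 1-based. Genes were the outer ends of 19974 protein-coding RefSeq genes, among 59098 genes of any type; starts came from the RefSeq promoter table for 15812 of them and for 8 of the 9 checkpoint genes. For genes not in that table, either end was used. A start peak is the peak nearest to a start within 1 kb, measured from its interval, with ties given to the higher fold. The pileup and control level were solved from the fold, as pileup plus 1 over control plus 1, and the Poisson p. All pileups were whole numbers to within 0.01. The functions were tested on simulated data. Intervals are exact Poisson and cover counting error only; the median pileup of 26 fragments sets the precision of a typical peak. The genes named are the 9 genes, the genes nearest to or sharing their peaks, and, of the 33 pathway genes, the 3 highest, the 3 lowest and those without a peak. The 9 genes and the lists were chosen with earlier results of these data known. Alternatives covered stricter fold and q, summits, other windows and either gene end. Computations were run in Python 3.11.15 with scipy 1.17.1, pandas 2.3.3 and numpy 2.4.6, and plots drawn with matplotlib 3.10.9.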

Additional observations from a re-analysis of the deposited data

How the results depend on the processing

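Under 6 alternatives of threshold, peak position and window, all 9 checkpoint genes kept a peak near the span and at the start except with a fold of at least 10, which left 8, the one lost being RAD17. Over all protein-coding genes, the share with a start peak was 62.6% and went from 45.6% with a fold of at least 10 to 67.1% with 3 times the window, and the share with a peak near the span went from 65.6% to 89.1%. The number of peaks near the 9 genes was 24 and went from 16, with a fold of at least 10, to 32, with windows of 3 times the size. Start peaks at the other pathway genes numbered 31 of 33, and 22 with a fold of at least 10, where the all-gene share was 45.6%. The median fold of the start peaks was 19.7, and 21.1 when the highest peak within 10 kb was taken for each gene instead. In ATR, CLSPN and TP53BP1 another peak was higher, but only ATR crossed the median by it, from 15.5 to 80.9. No paired analysis was possible because there was 1 immunoprecipitate. Depth limits the weak peaks, whose pileups of 7 and 8 fragments have wide intervals.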

Other observations

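Over all RefSeq promoter windows, CGGAAG was found in 49.7% of the 5023 windows that held an ETV4 summit and in 14.4% of the 29938 that did not. For CCGGAAGT the shares were 15.7% and 2.201%, and for the bare GGAA core 97.7% and 95.1%. Windows of one gene, or of neighbours, can overlap, so they are not independent, and the base composition of the windows with and without a summit was not compared. Among the 4141 peaks with a summit in a window, the median fold was 19.1 where CGGAAG was present and 13.6 where it was not. Among the 7 checkpoint start peaks with a summit in a window, the 5 with CGGAAG had folds from 8.41 at RAD17 to 24.1 at ATM. The 2 without it, CHEK2 and CHEK1, had folds of 21.1 and 28.1.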
